A study of Mus musculus with 28 samples.

Results

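The genes described here encode the proteins of the cytosolic ribosome. They were chosen by name, as every row of both count matrices whose symbol is Rps or Rpl followed by a number (with an optional a or x) or Rplp0, Rplp1 or Rplp2, and by level, as rows with at least 10 counts in at least one tumor. The rule gave 75 of the 55341 rows, of which 29 belong to the small subunit, 43 to the large subunit and 3 to its stalk. The member closest to the count limit was Rps18, whose highest count in any tumor was 1973, followed by Rps2 with 6625, and no row of a matching name lay below the limit. All 75 members passed the low-count filter used for the tests (edgeR's filterByExpr).

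RNA was measured in 28 whole AB1-HA tumors, AB1-HA being a mouse mesothelioma line, grown under the skin of BALB/c.AusBP mice, which the study's methods give as female and 8 to 10 weeks old. The 4 PBS tumors were the controls, and 5 ICB tumors came from mice given anti-CTLA-4 and anti-PD-L1 at 100 µg each with 2 further doses of anti-PD-L1, both being immune checkpoint blocking antibodies. There were 5 tumors after 5-FU at 75 mg/kg, 4 after cisplatin at 6 mg/kg, and 5 each after 5-FU+ICB and cisplatin+ICB at those doses. All tumors were taken on day 7 after treatment began, from a single cell line, and hold host cells as well as tumor cells. In such bulk samples fewer cells of a type and less RNA per cell cannot be told apart.

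The ribosome is made of a small subunit, which reads the mRNA, and a large subunit, which joins the amino acids, and each holds its own ribosomal RNA and set of proteins. The stalk of the large subunit, built by Rplp0, Rplp1 and Rplp2, recruits the translation factors. Cells need these proteins in nearly equal numbers, and their mRNAs are short and abundant. Most of them start with a C followed by a run of pyrimidines, the 5′ terminal oligopyrimidine (TOP) motif, through which mTOR and LARP1 control their translation. Several members also have roles outside the ribosome, such as Rpl5 and Rpl11, which bind and inhibit Mdm2, the ubiquitin ligase of p53.

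The starts of 4 members are shown because they carry the sequence feature for which this gene family is known. They are RefSeq starts in GRCm38.p6, 15 bases before and 15 from the annotated first transcribed base, 5′ to 3′ on the strand of the gene, with the pyrimidine run from that base in capitals.

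Rplp2, chr7:141447636-141447665, plus strand: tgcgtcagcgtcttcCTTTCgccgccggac
Rps6, chr4:86857353-86857382, minus strand: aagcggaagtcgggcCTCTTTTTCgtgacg
Rps18, chr17:33955651-33955680, minus strand: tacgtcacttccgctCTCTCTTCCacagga
Rpl15, chr14:18270972-18271001, minus strand: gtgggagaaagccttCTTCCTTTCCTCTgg

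RefSeq promoters were matched for 55 of the 75 members. A TOP start, taken as a C followed by at least 4 pyrimidines, lay at the annotated first base in 13 of them (23.6%), against 2.97% of 26970 other genes, and within 5 bases of it in 27 (49.1%), against 21.1%. The motif CCGGAAG, the core bound by ETS factors such as GABPA, stood on either strand of the 300 bases around the start in 22 (40%) against 9.87% of the others. A TATAAA on the strand of the gene, 40 to 20 bases before the start, was found in 0 of 55 members and in 2.25% of the others. These matches describe the annotated starts and their letters, with no test.

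The libraries held between 23541733 and 33950805 estimated counts. One library stood apart from all others in the members. In cisplatin+ICB replicate 1 they took 14.6% of all counts, while mitochondrial transcripts took 1.03% and the red cell markers summed to 750 CPM (counts scaled to a common library size). 5-FU+ICB replicate 5 had the highest mitochondrial share, 16.1%, and 770 CPM of B cell markers against 13.4 to 29.97 CPM in the other 4 tumors of its group. The summed skeletal muscle markers of this tumor were 4357 CPM. Main comparisons of these 2 groups are given with and without these libraries. Of the markers of mesothelioma cells, Msln reached 654 CPM, whereas Upk3b reached at most 2 counts and Wt1 at most 2.78 CPM in any tumor, and the keratins Krt8, Krt18 and Krt19 at most 48.9 CPM, so that the list rests mostly on Msln in 27 of the 28 tumors. In 5-FU+ICB replicate 5, Msln was at 0.5001 CPM, and the list summed to 111 CPM through Krt8 at 33.4, Krt18 at 27.2 and Krt19 at 48.9 CPM. The sum of this list was 314 ± 39.1 CPM (SD, n = 4) in PBS, 111 ± 66.4 (n = 5) in ICB, 110 ± 52.6 (n = 5) in 5-FU, 89.6 ± 51.6 (n = 5) in 5-FU+ICB (84.3 ± 58.1, n = 4, without replicate 5), 274 ± 42.3 (n = 4) in cisplatin and 172 ± 63.9 (n = 4) in cisplatin+ICB tumors without replicate 1, which itself had 665 CPM.

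The mean share of all counts that fell on the 75 genes was higher in the PBS group than in any treated group, and the share was lower and more even in ICB and 5-FU tumors. It was 6.53%, 8.75%, 5.15% and 5.44% in the 4 PBS tumors. It was 4.25%, 3.66%, 3.77%, 3.83% and 3.802% in the ICB tumors and 4.01%, 4.19%, 3.98%, 3.78% and 3.65% in the 5-FU tumors, so that neither group overlapped with PBS. In 5-FU+ICB tumors the share was 4.00%, 4.18%, 3.89%, 3.52% and 6.43%, the last of which lay among the PBS values. Cisplatin tumors, at 4.27%, 6.69%, 5.05% and 6.95%, spanned both ranges, and 2 of them lay above 3 of the 4 PBS tumors. Cisplatin+ICB tumors had 14.6%, the highest of all tumors, 3.69%, 4.36%, 4.07% and 3.96%. Their mean was 6.13% ± 4.73 (SD, n = 5) and 4.02% ± 0.277 (SD, n = 4) without replicate 1, against 6.47% ± 1.63 (n = 4) in PBS.

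**Figure D1:**
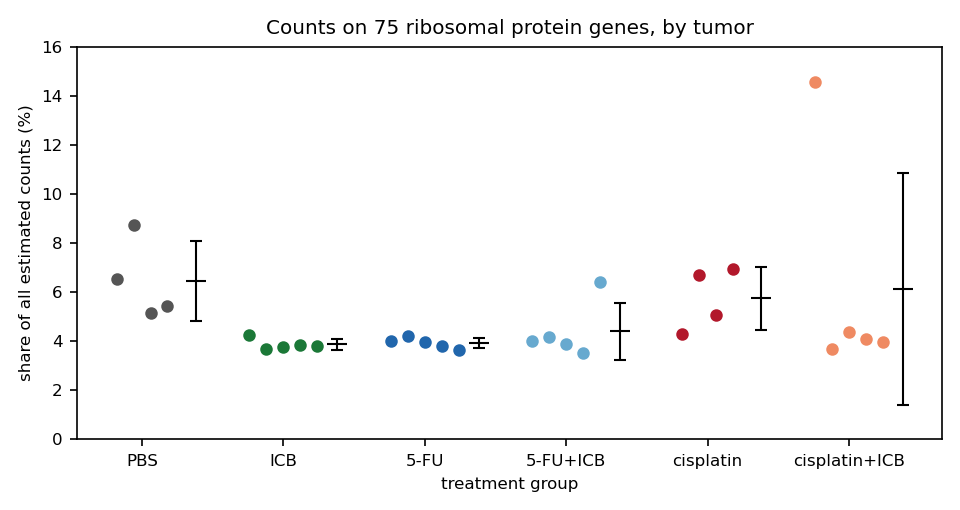
Share of all estimated counts on the 75 ribosomal protein genes (y axis, %) in each tumor (points) of the 6 treatment groups (x axis), with the group mean and SD in black. Cisplatin+ICB replicate 1 lies at 14.6%, and all ICB and 5-FU tumors lie below the lowest PBS tumor at 5.15%.

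The subunits moved together. The small subunit took 2.55% ± 0.756 of the counts in PBS and 1.52% ± 0.0818 in ICB tumors, the large subunit 3.6002% ± 0.821 and 2.15% ± 0.144, and the stalk 0.321% ± 0.0598 and 0.188% ± 0.0102. The ratio of small to large subunit counts was 0.699 ± 0.0459 in PBS, 0.706 ± 0.0237 in ICB, 0.680 ± 0.0396 in 5-FU and 0.700 ± 0.0236 in cisplatin tumors. Its highest values were 0.919 in cisplatin+ICB replicate 1 and 0.845 in 5-FU+ICB replicate 5.

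Relative to PBS, ICB tumors had lower RNA of most ribosomal protein genes. In the model of the 4 groups of the 5-FU matrix, 51 of 75 members were lower and 0 higher by edgeR's quasi-likelihood test (Benjamini-Hochberg adjusted p under 0.05 over all genes and an absolute log2 fold change over 0.5). Of all genes tested 37.8% were called in this comparison, and 18.8% of all genes tested were called lower. The median log2 fold change of the members was -0.80 (range -1.27 to -0.15), and that of all genes was -0.03. Of the members, 67 were lower in every ICB than in every PBS tumor, which held for 21% of all genes. Without PBS replicate 2, the PBS tumor with the highest share, 23 members were called (28.4% of all genes), with all 6 groups in one model 7, and in the model of the cisplatin matrix, which holds the same PBS and ICB tumors, 3. For the last 2 fits the share of all genes called is not given, so their counts are not set against it.

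After 5-FU alone 60 of 75 members were lower than in PBS and 0 higher, where 23% of all genes were called and 13% were called lower. The median log2 fold change was -0.84 (range -1.41 to -0.33) against -0.01 for all genes, and 65 members were lower in every 5-FU tumor, against 17.3% of all genes. Of the called members 48 were called lower in both groups, 3 only in ICB and 12 only in 5-FU, but both comparisons share the 4 PBS tumors. The same overlap over all genes is not given, and ICB against 5-FU was not tested. The count in 5-FU was 33 without PBS replicate 1, 15 without PBS replicate 2 and 37 without 5-FU replicate 5, where 10.5%, 7.87% and 14.1% of all genes were called, and 1 with all 6 groups in one model. For that model the share of all genes called is not given, so its count is not set against it.

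In 5-FU+ICB tumors 20 members were lower and 0 higher, with 40.7% of all genes called and 18.7% called lower, and the median was -0.46 (range -0.996 to 0.29). Only 2 members were lower in every tumor of this group, against 14.3% of all genes. Without 5-FU+ICB replicate 5 the count was 66 lower, with 36.8% of all genes called and 18% called lower, and the median was -0.75. It was 10, 4 and 33 without PBS replicates 1, 2 and 3, where 32%, 30.6% and 39.8% of all genes were called. It was 11, 11 and 8 without 5-FU+ICB replicates 1, 3 and 4, where 34.4%, 38% and 36.2% were called, and 1 with all 6 groups in one model. The share of all genes called in the model of all 6 groups is again not given.

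Cisplatin alone gave 0 calls among the members and in 0% of all genes by edgeR, with 0 members at an unadjusted p under 0.05 and 0 members called by DESeq2, which gave an adjusted p for 61 of the 75 members in each comparison of the cisplatin matrix. All 75 fold changes were negative, with a median of -0.30 (range -0.56 to -0.06). Cisplatin+ICB with all 5 tumors gave 0 calls among the members (1 at an unadjusted p under 0.05, 0 by DESeq2) and 6.1% of all genes. The median was 0.06, with 44 members above and 31 below 0. Without replicate 1 there were 67 members lower and 0 higher than in PBS, where 35.3% of all genes were called and 17.1% were called lower, and the median was -0.81 (range -1.38 to -0.15).

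**Figure D2:**
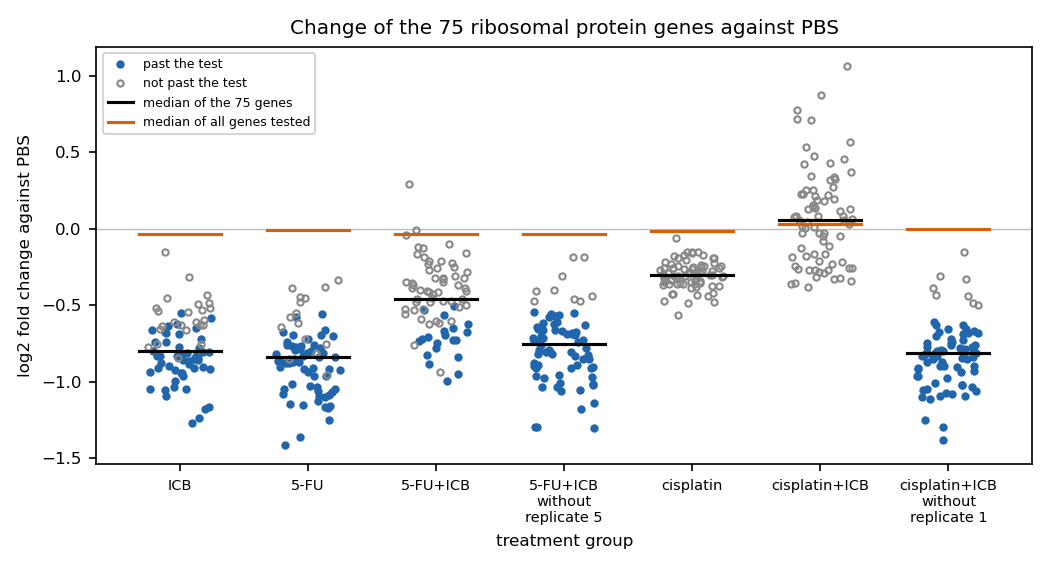
Log2 fold change against PBS (y axis) of the 75 ribosomal protein genes in each treatment group (x axis), with filled points for genes past the test, open points for the others, and the medians of the 75 genes (black) and of all genes tested (orange). The medians of ICB, 5-FU and both reduced combination groups lie between -0.75 and -0.84, that of cisplatin at -0.30.

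The members that fell are short, and shorter transcripts fell in general. The longest coding transcript of a member had a median of 914 bases (383 to 5179). Among genes that are not members, with a mean level over 5 on the log2 CPM scale, the median log2 fold change of ICB against PBS was -0.79 for 45 genes of up to 500 bases, -0.49 for 289 genes up to 1000, -0.45 for 1092 genes up to 2000, -0.17 for 2449 genes up to 4000 and 0.16 for 2500 longer genes. For 5-FU these medians were -0.80, -0.62, -0.44, -0.15 and 0.22, and for cisplatin -0.31, -0.28, -0.21, -0.10 and 0.05. In cisplatin+ICB replicate 1 the order was the opposite: the deviation from the mean of all tumors had a median of 1.64 over 312 genes of up to 1000 bases, of -1.36 over 2376 genes above 4000 bases and of 2.14 over the members.

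When this trend was fitted in each tumor on the other genes and used as an offset, an alternative added after the data were seen, 9 members were lower and 0 higher in ICB (median -0.20, 32.4% of all genes called and 11.7% called lower), and 10 lower and 0 higher in 5-FU (median -0.22, 14.7% called and 4.99% called lower). In 5-FU+ICB 3 were lower and 1, Rps23, was higher (median -0.05, 36.7% called and 12.3% called lower). Against the shares called lower, the count in ICB was near the background, that in 5-FU above it and that in 5-FU+ICB below it. Without 5-FU+ICB replicate 5 there were 12 lower and 0 higher (median -0.21, 31.1% called), against 66 lower without the offset. In cisplatin+ICB without replicate 1 there were 7 lower and 0 higher (median -0.14, 28% called), against 67 without the offset. The members lower in both ICB and 5-FU were Rplp0, Rps3, Rpl9, Rpl12, Rpl15 and Rpl18. Some members have 1 long annotated isoform, such as Rps15a with 5179 bases. With the median coding transcript in place of the longest, 29 members were lower in ICB (median -0.48, 33.9% of all genes called), 22 in 5-FU (median -0.51, 15.9%) and 3 in 5-FU+ICB (median -0.21, 37.5%), with 0 higher in each. The counts of lower members therefore depend on whether transcript length is taken into account and on how it is measured. Below, the length offset is that by the longest coding transcript unless the median is named.

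**Figure D3:**
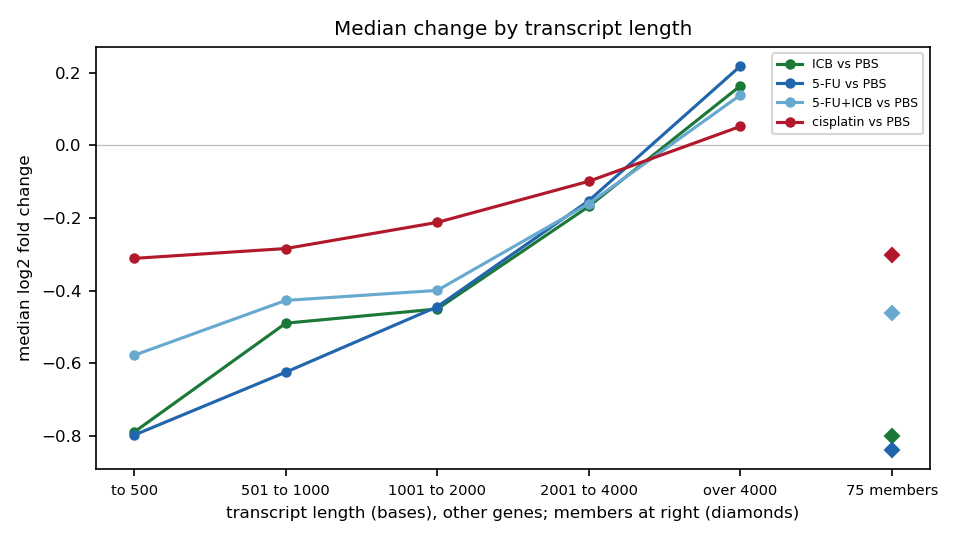
Median log2 fold change against PBS (y axis) of genes that are not members, by the length of their longest coding transcript (x axis), for 4 comparisons (lines), with the median of the 75 members as diamonds at the right. In ICB and 5-FU tumors the medians rise from about -0.79 and -0.80 in the shortest genes to 0.16 and 0.22 in the longest, and the members lie at -0.80 and -0.84.

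Other measures of the same groups are given here, and several of their ranges overlapped with PBS. Ptprc, the gene of the leukocyte antigen CD45, was at 92.1 ± 12.7 CPM in PBS (n = 4), 365 ± 82.4 in ICB (n = 5), 195 ± 99.0 in 5-FU (n = 5) and 402 ± 223 in 5-FU+ICB tumors (n = 5). The macrophage markers summed to 1095 to 1495 CPM in PBS, 2169 to 5969 CPM in ICB and 1428 to 4690 CPM in 5-FU tumors, the last overlapping with PBS. The fibroblast markers summed to 4691 to 11828 CPM in PBS, 5068 to 9766 CPM in ICB and 13074 to 20657 CPM in 5-FU tumors. Their range in ICB lay within that of PBS. The endothelial markers summed to 60.6 to 119 CPM in PBS, 121 to 242 in ICB and 121 to 278 in 5-FU tumors, with no overlap. The T cell markers summed to 19.5 to 25.6 CPM in PBS and 131 to 513 in ICB and 28.5 to 311 in 5-FU tumors, and neither group overlapped with PBS. The neutrophil markers summed to 7.63 to 15.9 CPM in PBS, 55.4 to 152 in ICB and 14.5 to 63.6 in 5-FU tumors, the last overlapping with PBS. The skeletal muscle markers summed to 101 to 167 CPM in PBS and to 835 to 1307 CPM in 5-FU tumors other than replicate 2, which had 7.91. The proliferation genes summed to 732 to 1459 CPM in PBS, 396 to 1130 CPM in ICB and 536 to 1167 CPM in 5-FU tumors, so that these groups overlapped. Mitochondrial transcripts took 1.53% to 2.37% of the counts in PBS, 2.69% to 4.82% in ICB and 2.72% to 6.802% in 5-FU tumors, with no overlap with PBS. Malat1 and Neat1, RNAs kept in the nucleus, summed to 95.6 to 199.6 CPM in PBS, 195 to 682 in ICB, 128 to 347 in 5-FU and 562 to 1039 in cisplatin+ICB replicates 2 to 5. The part of these in the changes of the ribosomal protein genes was not tested.

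Of the stalk, Rplp0, on chromosome 5 from 115559467 to 115563727, was at 1351, 1626, 812 and 902 CPM in PBS tumors. It was at 603, 449, 556, 579 and 635 CPM in ICB tumors and at 523, 601, 596, 563 and 498 CPM in 5-FU tumors. All 10 of these lay below the lowest PBS tumor. The log2 fold change was -1.05 in ICB (standard error 0.27, edgeR adjusted p = 0.0051) and -1.09 in 5-FU (standard error 0.27, adjusted p = 0.00998). 5-FU+ICB tumors had 610, 651, 586, 429 and 1258 CPM, the last among the PBS values, and the change was -0.73 (standard error 0.27, adjusted p = 0.0331). This call was kept in 3 of 9 fits that left out a tumor and in 8 of 14 other alternatives. Without 5-FU+ICB replicate 5 the change was -1.05 (edgeR adjusted p = 0.00221). With the length offset, which uses the longest coding transcript, the changes were -0.59 in ICB (edgeR adjusted p = 0.0211) and -0.59 in 5-FU (adjusted p = 0.0422), still called, and -0.35 in 5-FU+ICB (adjusted p = 0.139). Cisplatin tumors, at 585, 1156, 873 and 1143 CPM, overlapped with PBS.

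Rplp2, on chromosome 7 from 141447370 to 141451585, was at 1201, 1438, 1062 and 994 CPM in PBS, at 640, 647, 633, 678 and 688 in ICB and at 669, 745, 813, 685 and 560 in 5-FU tumors. It fell by 0.82 in ICB (edgeR adjusted p = 0.00793) and by 0.76 in 5-FU (adjusted p = 0.0216) on the log2 scale. Neither call was kept with the length offset (-0.31 and -0.20, edgeR adjusted p = 0.0949 and 0.322). With the median coding transcript the call in ICB was kept and that in 5-FU was not. Rplp1, the third stalk gene, had 1009 ± 161 CPM in PBS, 694 ± 60.6 in ICB and 739 ± 109 in 5-FU tumors, and its log2 fold changes of -0.53 and -0.45 did not pass the test (edgeR adjusted p = 0.0984 and 0.184). Of its 31-base words 75.1% also occur in other genes, so that its reads could have been divided among them, against 42.8% for Rplp0 and 22.9% for Rplp2.

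In the small subunit, Rps3, which lines the entry of the mRNA and also acts in DNA repair, had the lowest fold change in 5-FU. It lies on chromosome 7 from 99477896 to 99483738, and 6.36% of its words are shared. PBS tumors had 1692, 3766, 1103 and 1106 CPM. ICB tumors had 872, 733, 864, 757 and 878 CPM, and 5-FU tumors 690, 827, 776, 709 and 666. Both groups lay below every PBS tumor, and PBS replicate 2 stood far above the other 3. The log2 fold change was -1.24 in ICB (standard error 0.33, edgeR adjusted p = 0.00764) and -1.41 in 5-FU (standard error 0.33, adjusted p = 0.00907). 5-FU+ICB tumors had 897, 864, 795, 612 and 1681 CPM (log2 fold change -0.996, adjusted p = 0.0224, and -1.298, adjusted p = 0.00525, without replicate 5). With the length offset the changes were -0.85 in ICB (edgeR adjusted p = 0.0244) and -1.002 in 5-FU (adjusted p = 0.026), still called, and -0.65 in 5-FU+ICB (adjusted p = 0.0689). The lowest in 5-FU was then Rps15a, with -1.12 (longest coding transcript 5179 bases, median 640), which was not called with the median. Rps3 was called in ICB and 5-FU with the median coding transcript as well. Cisplatin tumors, at 745, 1899, 1003 and 1810 CPM, overlapped with PBS. Cisplatin+ICB tumors had 690, 797, 783 and 776 CPM in replicates 2 to 5, all below PBS, and 13268 in replicate 1, above every other tumor.

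Rps14, near the mRNA exit, whose human counterpart is lost in the 5q- syndrome, was at 1108, 2345, 556 and 598 CPM in PBS and at 520, 384, 551, 428 and 535 in ICB tumors. It had the lowest fold change of the members in ICB, -1.27 (standard error 0.38, edgeR adjusted p = 0.0135), although the highest ICB tumor lay only just under the lowest PBS tumor. 5-FU tumors had 396, 508, 553, 435 and 408 CPM (-1.36, adjusted p = 0.0176), again just under the PBS range. Under the length offset the changes of Rps14 were -0.56 and -0.59 (edgeR adjusted p = 0.0738 and 0.0923), neither of them called. The lowest in ICB was then Rpl18, with -0.90 (longest coding transcript 2989 bases, median 552). With the median coding transcript Rps14 was called lower in both groups. Cisplatin tumors had 408, 1278, 573 and 857 CPM. Rps7 fell by 1.18 in ICB (edgeR adjusted p = 0.0114) and by 1.16 in 5-FU (adjusted p = 0.0213), from 262, 532, 183 and 190 CPM in PBS to 135, 118, 133, 117 and 145 in ICB and 123, 150, 169, 105 and 113 in 5-FU tumors. Neither call of Rps7 was kept with the length offset (-0.57 and -0.52, edgeR adjusted p = 0.055 and 0.115). With the median coding transcript Rps7 was called in ICB and not in 5-FU. In all 3 of these genes PBS replicate 2 was the highest of its group.

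Rps6, the target of S6 kinase, was at 1322, 1228, 940 and 930 CPM in PBS, at 674, 577, 694, 673 and 789 in ICB and at 583, 747, 704, 586 and 573 in 5-FU tumors, with no overlap. The changes were -0.69 (standard error 0.22, edgeR adjusted p = 0.0183) and -0.79 (standard error 0.22, adjusted p = 0.0162). They were -0.16 and -0.21 with the length offset and did not pass the test (edgeR adjusted p = 0.356 and 0.261). In 5-FU+ICB it was at 732, 770, 724, 567 and 1398 CPM and did not pass the test (-0.39, edgeR adjusted p = 0.155), with replicate 5 above every PBS tumor. Without that tumor it did (-0.66, edgeR adjusted p = 0.00579). Rps27a, which is made as a fusion with ubiquitin, had 915, 1390, 797 and 779 CPM in PBS and 589, 504, 628, 517 and 659 in ICB tumors (-0.74, edgeR adjusted p = 0.0316, and -0.15, adjusted p = 0.416, with the length offset). Its 5-FU tumors, at 573, 682, 770, 582 and 525 CPM, also lay below PBS, and the change of -0.64 did not pass the test (adjusted p = 0.0778). Rps19, Rps25, Rps26 and Rps10 were lower in both groups. Rps19, a gene of Diamond-Blackfan anemia, went from 877 ± 236 CPM in PBS to 499.6 ± 42.8 in ICB and 470.1 ± 41.2 in 5-FU tumors, and Rps26, another such gene, from 947 ± 167 to 499.6 ± 44.2 and 553 ± 72.5. Of these calls, Rps10 in 5-FU was the one kept with the length offset (-0.51, edgeR adjusted p = 0.0402). With the median coding transcript Rps10 and Rps25 were called in both groups, Rps26 in ICB and Rps19 in neither. Rps4x, encoded on the X chromosome, passed the test in 5-FU (-0.72, edgeR adjusted p = 0.036) and not in ICB (-0.51, adjusted p = 0.0925). Its call in 5-FU was kept in 3 of 9 fits that left out a tumor and in 8 of 14 other alternatives, and with the length offset the change was -0.16 (edgeR adjusted p = 0.484). Rps20 passed the test in neither (-0.59 and -0.75, adjusted p = 0.0899 and 0.0515).

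In the large subunit, Rpl12, at the base of the stalk, fell by 1.16 in ICB (standard error 0.28, edgeR adjusted p = 0.00429), by 1.25 in 5-FU (standard error 0.29, adjusted p = 0.00812) and by 0.95 in 5-FU+ICB (standard error 0.28, adjusted p = 0.0127). It lies on chromosome 2 from 32961559 to 32965345. PBS tumors had 339, 635, 283 and 291 CPM, ICB tumors 169, 182, 150, 187 and 175, and 5-FU tumors 184, 191, 156, 148 and 146. In 5-FU+ICB the values were 150, 191, 163, 131 and 367 CPM. Apart from the last, every value of these 3 groups lay below PBS. Rpl15, on chromosome 14 from 18267823 to 18271391, had 1423, 1908, 908 and 967 CPM in PBS, 674, 584, 614, 610 and 696 in ICB and 584, 718, 639, 572 and 553 in 5-FU tumors. Its changes were -1.03 (edgeR adjusted p = 0.00231) in ICB, -1.10 (adjusted p = 0.00558) in 5-FU and -0.88 (adjusted p = 0.00566) in 5-FU+ICB. All 3 calls of both genes were kept with the length offset, at -0.66, -0.70 and -0.55 for Rpl12 and -0.68, -0.72 and -0.57 for Rpl15 (edgeR adjusted p from 0.00568 to 0.0447). The 5-FU+ICB tumors had 643, 737, 659, 482 and 1012 CPM and the cisplatin tumors 653, 1336, 910 and 1348, so that both groups overlapped with PBS.

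Rpl5 and Rpl11, which form a complex with the 5S ribosomal RNA, were lower in ICB and 5-FU. Rpl5 had 310, 567, 289 and 284 CPM in PBS, 204, 170, 203, 172 and 191 in ICB and 210, 243, 198, 178 and 174 in 5-FU tumors (-0.94 and -0.87, edgeR adjusted p = 0.00501 and 0.0156). Rpl11 had 689, 1195, 601 and 558 CPM in PBS, 461, 403, 460, 360 and 448 in ICB and 436, 468, 471, 381 and 390 in 5-FU tumors (-0.83 and -0.84, edgeR adjusted p = 0.0123 and 0.0209). Neither passed the test in 5-FU+ICB (-0.59 and -0.52, adjusted p = 0.0509 and 0.0898), and both did without replicate 5 (-0.82 and -0.76, adjusted p = 0.00703 and 0.0115). Rpl5 was still called with the length offset in ICB (-0.63, edgeR adjusted p = 0.0197) and not in 5-FU (-0.52, adjusted p = 0.0715), and Rpl11 in neither (-0.24 and -0.19, adjusted p = 0.157 and 0.317). With the median coding transcript Rpl5 was called in both groups, and Rpl11 in ICB and not in 5-FU. Mdm2 and Trp53, the genes of their partner and of p53, did not pass the test in ICB (-0.26 and -0.40, edgeR adjusted p = 0.244 and 0.145) or 5-FU (-0.37 and -0.16, adjusted p = 0.123 and 0.608).

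Rpl41, which encodes one of the shortest proteins known, had 1895, 2909, 1364 and 1482 CPM in PBS, 1045, 926, 1043, 957 and 1022 in ICB and 1079, 1146, 1118, 992 and 941 in 5-FU tumors (-0.94 and -0.87, edgeR adjusted p = 0.00597 and 0.017). Both calls were lost with the length offset (-0.25 and -0.11, edgeR adjusted p = 0.0841 and 0.473). With the median coding transcript the call in ICB was kept and that in 5-FU was lost. Rpl3 and Rpl10, at the peptidyl transferase center, were lower in both groups (-0.77 and -0.55 in ICB, -1.03 and -0.87 in 5-FU), as were Rpl13a (-0.99 and -1.12), Rpl38 (-0.84 and -0.92) and Rpl39 (-0.81 and -1.01). The calls of Rpl10 and Rpl39 in ICB were each kept in 3 of 9 fits that left out a tumor and in 9 of 16 other alternatives, and that of Rpl13a in 5-FU in 4 of 9 and 9 of 14. Rpl3 in 5-FU was still called with the length offset (-0.52, edgeR adjusted p = 0.0243), and no other of these 10 calls was. With the median coding transcript Rpl3 and Rpl10 in 5-FU were called, and no other of the 10. Rpl24 and Rpl26 passed the test in 5-FU (-0.76 and -0.77, edgeR adjusted p = 0.0278 and 0.0285) and not in ICB (-0.52 and -0.61, adjusted p = 0.0879 and 0.0507). Both calls in 5-FU were kept in 4 of 9 fits that left out a tumor and in 10 of 14 others, and with the length offset each change was -0.09 (edgeR adjusted p = 0.626 and 0.625). Whether the changes of Rps4x, Rpl24 and Rpl26 differ between 5-FU and ICB was not tested. Rpl22 and Rpl36a passed in neither, with -0.49 and -0.63 in ICB and -0.48 and -0.62 in 5-FU (edgeR adjusted p from 0.0514 to 0.158).

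**Figure D4:**
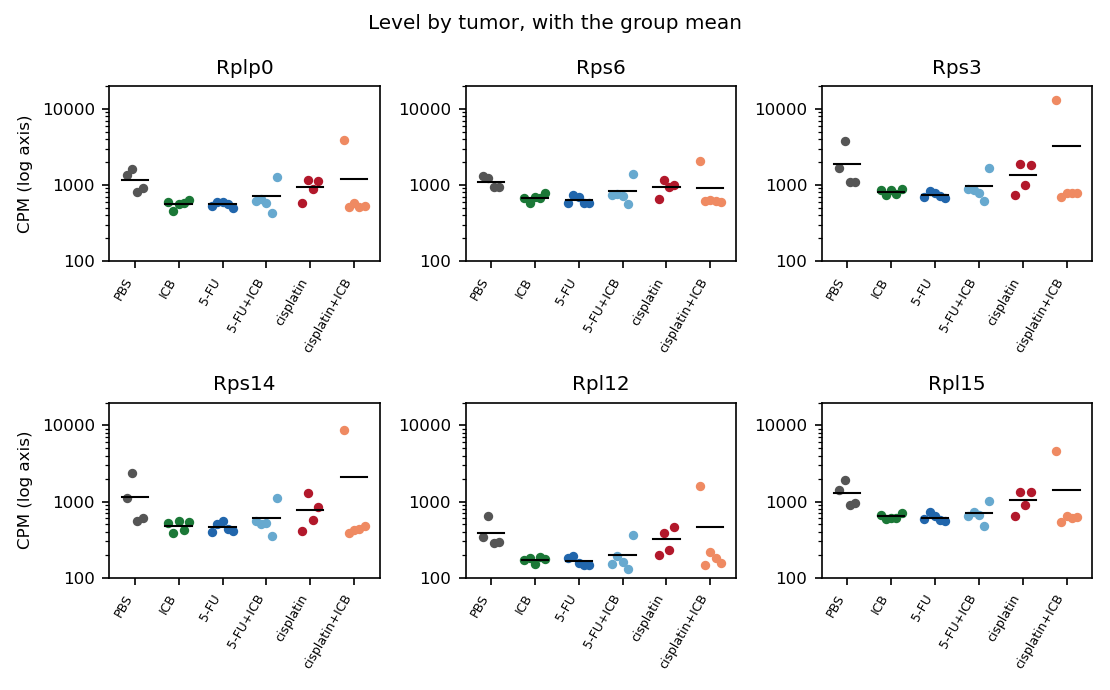
CPM (y axis, log scale) of 6 members in every tumor (points) of each group (x axis), with the group mean as a line. For each gene shown all ICB and 5-FU tumors lie below all PBS tumors, and cisplatin+ICB replicate 1 is the highest of the 28 tumors.

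The other members showed the same direction with few exceptions. By the median of the 3 changes in ICB, 5-FU and 5-FU+ICB, the members that changed least were Rps23 (-0.15 in ICB, -0.38 in 5-FU and 0.29 in 5-FU+ICB), Rps29 (-0.31, -0.57 and -0.0067) and Rps2 (-0.63, -0.33 and -0.13), and none passed the test (edgeR adjusted p from 0.163 to 0.988). Without 5-FU+ICB replicate 5 the change of Rps23 in that group was -0.19 (edgeR adjusted p = 0.427). Rps23, which holds a residue of the decoding center, was at 436 ± 52.6 CPM in PBS, 389 ± 66.8 in ICB, 335 ± 67.7 in 5-FU and 526 ± 329 in 5-FU+ICB tumors. Rpl4 reached an adjusted p of 0.0274 in ICB by edgeR, but its change of -0.43 was under the fold limit. The member with the lowest counts, Rps18, at 33.9 ± 8.45 CPM in PBS, was at 19.3 ± 3.15 in ICB (-0.80, edgeR adjusted p = 0.00497, and -0.14, adjusted p = 0.462, with the length offset) and 23.3 ± 2.23 in 5-FU tumors (-0.55, adjusted p = 0.0512).

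**Figure D5:**
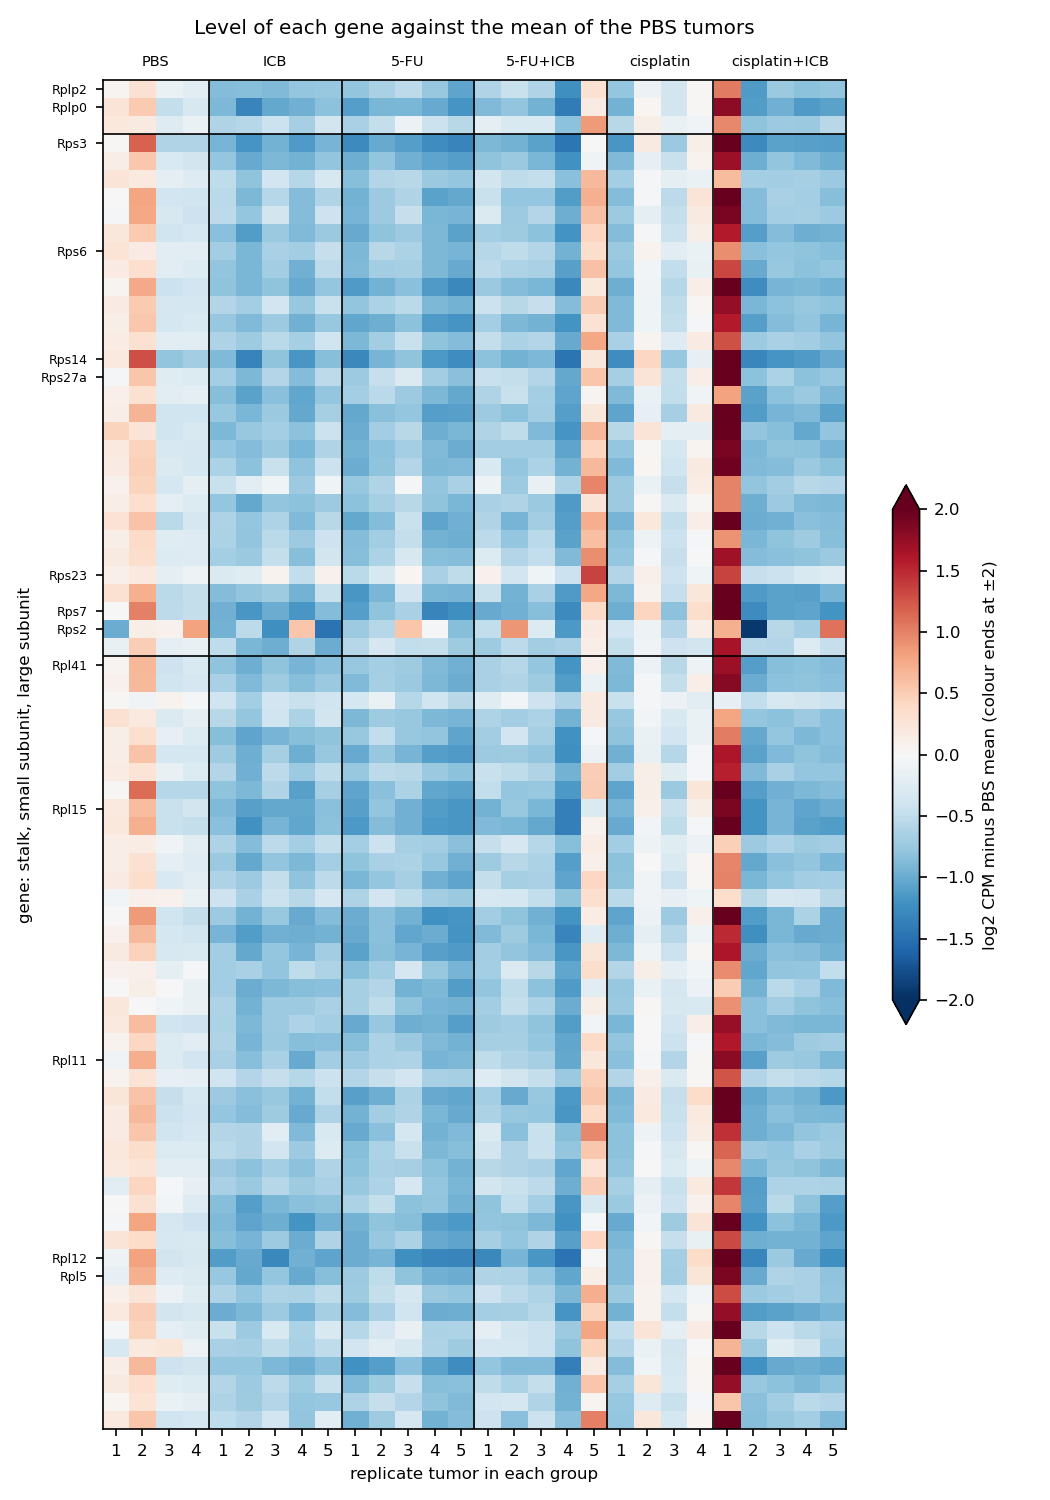
Log2 CPM of the 75 genes (rows: stalk, small subunit, large subunit, each ordered by its level in PBS, with some genes named) in the 28 tumors (columns by group and replicate) minus the mean of the PBS tumors, with the colour scale ending at 2 on either side. The ICB and 5-FU columns are blue in nearly every row, cisplatin+ICB replicate 1 is red in nearly every row, and Rps2 varies from tumor to tumor.

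The members kept nearly the same proportions to one another. When each was set against the median of all members in the same tumor, its SD over 27 tumors (cisplatin+ICB replicate 1 left out) had a median of 0.13 on the log2 scale, and 63 of 75 members were under 0.2, while the median of the members itself had an SD of 0.43. The most constant was Rps19, with an SD of 0.04. The least was Rps2, with 0.75, followed by Rps23, with 0.30. In cisplatin tumors 74 members lay within 0.2 of their mean in PBS, in ICB 54, in 5-FU 57 and in 5-FU+ICB 50, or 54 without replicate 5. In ICB, Rpl12 lay 0.33 lower and Rps23 0.58 higher against the other members than in PBS. In 5-FU, Rps3 lay 0.34 lower and Rps2 0.53 higher.

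Cisplatin+ICB replicate 1 did not raise all members alike. Rps3 was at 13268 CPM against 690 to 797 CPM in the other 4 tumors of the group, Rps14 at 8719 against 390 to 477 and Rps7 at 2548 against 110 to 127. Rpl12, at 1622 against 148 to 217 CPM, and Rplp0, at 3903 against 512 to 580, were raised less. Rps6, at 2074 against 604 to 638 CPM, and Rplp2, at 2399 against 528 to 698, were the least raised of these. Against the median member of the same tumor Rps3 stood at 2.48 on the log2 scale, where the other 27 tumors ranged from 0.53 to 1.70. Rps14 stood at 1.88, with -0.31 to 1.02 in the others, and Rpl13a at 1.96, with 0.22 to 1.28. Rpl4 stood at -0.67, below its range of 0.47 to 1.57, and Rpl23 at -0.65, below 0.14 to 0.95. The values of this tumor are a description of 1 library, which the selection of these genes had in view.

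With all tumors in the fit, the combinations gave 0 called members against either of their single treatments. Relative to ICB alone, 5-FU+ICB tumors had 0 members called by edgeR (1 at an unadjusted p under 0.05, 0 by DESeq2), where 0.229% of all genes were called, and a median of 0.31. This median was -0.00078 without 5-FU+ICB replicate 5. Relative to 5-FU alone 0 were called (7 at an unadjusted p under 0.05, 0 by DESeq2), with 0.0112% of all genes called and a median of 0.38, or 0.08 without that tumor. Cisplatin+ICB against ICB gave 0 called members (21 at an unadjusted p under 0.05, 0 by DESeq2) and 0% of all genes, with a median of 0.86 that became -0.07 without cisplatin+ICB replicate 1 (0 members at an unadjusted p under 0.05, again 0% of all genes called). Cisplatin+ICB against cisplatin gave 0 (0 at an unadjusted p under 0.05, 0 by DESeq2) and 0% of all genes, with a median of 0.38 and 64 of 75 fold changes above 0. Without replicate 1 the median turned to -0.53 and 3 members were called lower, with 11.9% of all genes called and 3.58% called lower.

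5-FU against cisplatin, the single chemotherapies, gave 0 called members (1 at an unadjusted p under 0.05, 0 by DESeq2) and 0.362% of all genes, and all 75 fold changes were negative with a median of -0.54. For the interaction of 5-FU with ICB, the change from ICB to 5-FU+ICB minus that from PBS to 5-FU, 0 members were called and 0.0893% of all genes. Its median was 1.16 (range 0.63 to 1.69) against 0.03 for all genes, and 73 of 75 members had an unadjusted p under 0.05, which 23.9% of all genes had. The smallest adjusted p of a member by edgeR was 0.0657, and DESeq2 called 55 members higher, with 9.57% of all genes called. edgeR called 57 members higher without PBS replicate 3, 43 without PBS replicate 4 and 50 without 5-FU+ICB replicate 4, where 9.27%, 5.56% and 5.35% of all genes were called. Without 5-FU+ICB replicate 5 the median was 0.86, with 0 members and 0% of all genes called by edgeR and 72 members at an unadjusted p under 0.05. With the length offset the median was 0.38. Rps3 had an interaction of 1.65 (standard error 0.46, edgeR adjusted p = 0.067), Rplp0 of 1.42 (standard error 0.37, adjusted p = 0.0668) and Rps6 of 1.09 (standard error 0.30, adjusted p = 0.0668). Without 5-FU+ICB replicate 5 these were 1.35, 1.09 and 0.82 (edgeR adjusted p = 0.0908, 0.0891 and 0.0891). The interaction of cisplatin with ICB gave 0 called members (6 at an unadjusted p under 0.05, 0 by DESeq2) and 0% of all genes, with a median of 1.15. It was 0.23 without cisplatin+ICB replicate 1, where 0 members and 0% of all genes were called and 1 member had an unadjusted p under 0.05.

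Other lists of the ribosome and of translation held called genes that were lower in ICB and 5-FU, and members that were not called. Of 5 tested ribosomal protein genes outside the name rule, 3 were lower in ICB and 4 in 5-FU, with 0 higher, where 18.8% and 13% of all genes were called lower. Rack1, a scaffold on the small subunit, had -1.28 in ICB (edgeR adjusted p = 0.00203) and -1.39 in 5-FU (adjusted p = 0.00476), and Rps3a1 -0.87 and -0.79 (adjusted p = 0.00333 and 0.0125). Rpsa, the laminin receptor, had -0.95 and -0.78 (adjusted p = 0.00487 and 0.0248). Of 7 tested paralogs 3 were lower and 0 higher in each group, among them Rps27l, a p53 target, with -1.19 and -1.03 (adjusted p = 0.000657 and 0.00505). The paralogs Rpl39l, Rps4l and Rpl3l had positive changes in both groups that did not pass the test (0.45, 0.83 and 2.07 in ICB, edgeR adjusted p from 0.169 to 0.551). Of 19 translation factors and other TOP mRNAs 10 were lower in ICB and 11 in 5-FU, with 0 higher and medians of -0.54 and -0.62, beside the same 18.8% and 13% of all genes. Eif3h, a subunit of the initiation factor eIF3, had -0.96 and -1.19, whereas Eef2, the elongation factor that moves the ribosome, had 0.13 and -0.11 (edgeR adjusted p = 0.585 and 0.693). In the fit with the length offset, where 11.7% of all genes were called lower in ICB and 4.99% in 5-FU, these 3 lists held 2, 1 and 6 lower genes in ICB and 1, 0 and 3 in 5-FU. The paralog Rps4l was called higher in ICB (1.36, edgeR adjusted p = 0.0321), the only higher call of these lists in the 2 groups. The median of the paralogs was 0.30 in ICB and 0.11 in 5-FU, against -0.36 and -0.59 without the offset. Rack1 was still called in both (-0.80 and -0.87, edgeR adjusted p = 0.00463 and 0.0115), Rpsa in ICB and Eif3h in 5-FU, and Rps3a1 and Rps27l in neither.

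Of the 78 genes of mitochondrial ribosomal proteins, which are encoded in the nucleus and serve the ribosome of the mitochondrion, 66 were lower in ICB (median -0.74), 66 in 5-FU (median -0.69) and 55 in 5-FU+ICB (median -0.65), with 0 higher. Of all genes 18.8%, 13% and 18.7% were called lower in these comparisons. With the length offset 29, 18 and 24 were lower, with medians of -0.35, -0.22 and -0.30, beside 11.7%, 4.99% and 12.3% of all genes. With that offset 0, 0 and 1 were higher. Of 27 ribosome biogenesis genes 15 were lower in ICB, 4 in 5-FU and 13 in 5-FU+ICB, with 0 higher and medians of -0.69, -0.28 and -0.52. The 4 in 5-FU stand beside 13% of all genes called lower, and the count in 5-FU+ICB was 9 without replicate 5. Of them 12, 3 and 7 were lower with the length offset. Whether these counts differ between the groups was not tested. Of 17 tested regulators 3 were higher and 2 lower in ICB, and 0 higher and 2 lower in 5-FU, where 37.8% and 23% of all genes were called, so that these counts were no larger than the background. Myc, which drives ribosome synthesis, had -0.79 in ICB (edgeR adjusted p = 0.0217) and -0.16 in 5-FU (adjusted p = 0.662), and Eif4ebp1, a repressor of cap-dependent translation under mTOR, -0.65 and -0.88 (adjusted p = 0.0144 and 0.00747). Eif4ebp1 in 5-FU was still called with the length offset (-0.55, edgeR adjusted p = 0.0449), and neither gene was in ICB (adjusted p = 0.0845 and 0.137).

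Reads of this family can be shared with its many pseudogenes. The 289 rows of named pseudogenes took 9.69% ± 0.725 (SD, n = 4) of the amount on the members in PBS, 9.14% ± 0.738 (n = 5) in ICB and 9.95% ± 1.20 (n = 5) in 5-FU tumors, so that on this measure the groups did not differ beyond their spread. The 341 rows with at least 50% of their 31-base words in a member took 23.2% ± 0.445 in PBS, 21.7% ± 1.29 in ICB and 22.7% ± 1.85 in 5-FU tumors. Their mean in ICB lay below the lowest PBS tumor (22.7%), but the highest ICB tumor (23.1%) did not. By 31-base words, 94.1% of those of Rpl36 and 88.8% of Rpl35 also occur in other genes, against 6.36% of Rps3. In ICB tumors Rpl36 had a log2 fold change of -0.91 (edgeR adjusted p = 0.0114), and of -0.12 (adjusted p = 0.381) with the length offset. With the median coding transcript it was still called.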

How the data were processed

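Per the study's methods, RNA of whole tumors was sequenced as single-end reads. The submitters' processing notes name bcl2fastq 2.20.0.422 and kallisto 0.46.0, and the authors deposited estimated counts per gene (GRCm38) in 2 matrices, which hold the same PBS and ICB tumors. The counts were rounded to whole numbers. Genes were filtered with filterByExpr by group, scaled by TMM and tested with edgeR 4.0.16 (quasi-likelihood, R 4.3.3) in a model of the 4 groups of each matrix. 5-FU against cisplatin used all 6 groups joined. P-values were adjusted by Benjamini-Hochberg over all genes tested. Calls needed an adjusted p below 0.05 with a log2 fold change beyond 0.5 in either direction. Log2 CPM used a prior count of 2. DESeq2 1.42.0 was an alternative, and the procedure was tested on simulated data. Library totals were 23541733 to 33950805, which makes counting error small against the spread between tumors. Replicates are separate tumors, and the labels name no batch.

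The members and lists were chosen with earlier results of these data known. Named were fixed members (the stalk, genes with known roles), the 3 largest called changes per comparison, the members with the largest and smallest median change or farthest from the median member, and those nearest the count limit. Transcript lengths and 31-base words came from GENCODE M21 and gene coordinates are GRCm38. Alternatives were other scaling, filters, models, tools, lengths and leaving out each tumor. Some results are not reported here.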

Additional observations from a re-analysis of the deposited data

Results flagged for a closer look

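In 11 of the 65 group values examined outside cisplatin+ICB (the share and 12 members, in groups of 4 or 5 tumors), the highest tumor lay farther from the others than Dixon's 95% critical value allows. Chance alone gives such a gap in about 5% of groups, but these genes share the same libraries and are not independent. The causes were not tested.

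Cisplatin+ICB replicate 1 was known to stand apart when these genes were chosen, so its values are a description and no test. It passed the same limit in its share of counts (14.6%, next tumor 4.36%) and in all 12 members: Rps3 (13268 CPM), Rps14 (8719), Rpl41 (5955), Rps27a (5683), Rpl15 (4583), Rplp0 (3903), Rps7 (2548), Rpl11 (2521), Rplp2 (2399), Rps6 (2074), Rpl12 (1622) and Rpl5 (1275).

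5-FU+ICB replicate 5 stood apart in its share (6.43%, next tumor 4.18%) and in 8 members: Rps3 (1681 CPM), Rps6 (1398), Rps27a (1379), Rplp0 (1258), Rps14 (1127), Rpl5 (379), Rpl12 (367) and Rps7 (343). PBS replicate 2 stood apart in Rpl12 (635 CPM, next tumor 339) and Rpl5 (567 CPM, next tumor 310).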

How the results depend on the processing

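All counts here are members called, and where no direction is given all were lower. Where no share of all genes called is given, a count was not set against that background. Against PBS, ICB gave 51, 5-FU 60 and 5-FU+ICB 20. Scaling by library totals gave 40 in 5-FU+ICB. Without a filter 5-FU gave 36 and 5-FU+ICB 11, and with at least 10 counts in every tumor 5-FU+ICB gave 12. With all 6 groups in one model the counts were 7, 1 and 1, the matrix of the cisplatin groups gave 3 for ICB, and the compared groups alone gave 1 for 5-FU+ICB and 1 for 5-FU against cisplatin. With the length offset, added after the data were seen, the counts were 9, 10 and 4 (1 of them higher), and with the median coding transcript 29, 22 and 3. The causes of these differences were not tested.

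With all 6 groups joined and cisplatin+ICB replicate 1 left out, also added later, cisplatin+ICB gave 68 against PBS and 8 against cisplatin, 5-FU against cisplatin 6, and the interaction of 5-FU with ICB 59 higher. The shares of all genes called in this fit are not given, so these counts are not set against them. In the same fit the median of cisplatin+ICB against ICB was -0.10. Leaving out each tumor in turn, this median ran from -0.073 without that tumor to 1.04 without cisplatin+ICB replicate 2, against 0.86 with all. DESeq2 called 55 members higher in the interaction of 5-FU with ICB.

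Leaving out each tumor in turn gave 23 to 62 for ICB, 15 to 65 for 5-FU and 4 to 66 for 5-FU+ICB against PBS, 0 to 67 for cisplatin+ICB against PBS and 0 to 3 against cisplatin, 0 to 57 (higher) for the interaction of 5-FU with ICB, and 0 in every other comparison. The share of all genes called ran from 28.4% to 39.8% in ICB, 7.87% to 25.9% in 5-FU and 30.6% to 48.8% in 5-FU+ICB against PBS. It ran from 0% to 35.3% in cisplatin+ICB against PBS, 0% to 11.9% against cisplatin and 0% to 9.27% in that interaction. With named pseudogenes added, the share of counts, ICB, moved from 3.86% to 4.21% and the share of counts, 5-FU, from 3.92% to 4.31%. Of 296 alternative values of the medians, 11 had the other sign, in cisplatin+ICB against PBS, ICB and cisplatin and in 5-FU+ICB against ICB.

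Replicate numbers did not pair the tumors: 66 correlations of same-numbered tumors ranged from -0.63 to 0.66, with 21 over 0.1. With the number as a replicate block, 65 members were lower in ICB, 66 in 5-FU and 28 in 5-FU+ICB, and 0 were called in the other comparisons. The shares of all genes called with the block are not given, so these counts are not set against them.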
